A study of Mus musculus with 151 samples.

Results

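A set of 9 genes that carry the signal from Kit ligand to the transcription factor FOXO3 were followed: Kitl, Kit, Pdpk1, Akt1, Mtor, Rps6kb1, Tsc1, Tsc2 and Foxo3. They were chosen by name, and all of them were found among the 35976 gene names of each of the 7 count tables. Each was compared between offspring conceived naturally (Natural) and offspring conceived by in vitro fertilization (IVF). All mice of both groups were wild-type offspring of CF-1 females and B6/SJL males. Natural offspring came from timed matings and developed without embryo transfer. IVF embryos came from eggs of superovulated females, were cultured to the blastocyst stage and were transferred to pseudopregnant CF-1 recipients, so superovulation of the mother, fertilization in vitro, culture and transfer cannot be told apart. Ovaries came from E18.5 fetuses (4 of the Natural group, 6 of the IVF group), from adults of 12 weeks (4 Natural, 5 IVF) and from adults of 39 weeks (5 of each). Per the methods, RNA came from a part of each frozen adult ovary or from a whole E18.5 gonad. Below, a whole ovary means ovary tissue that was not sorted into cells. Pools of 100 primordial germ cells (PGCs) were measured at E13.5 (4 and 5), single oocytes at 12 weeks (36 and 40, in 5 and 5 sets that share the first 2 fields of the library name) and at 39 weeks (9 and 10), and cumulus cells at 12 weeks (5 and 5). Oocytes and cumulus cells came from offspring given eCG and hCG, so they were taken from ovulated complexes and not from resting follicles. What the fields of a library name stand for is not stated in the labels; the first field takes 2 values in each group, 35 and 92 in Natural and 126 and 127 in IVF, so sets may share a source and the n of 5 may be too large.

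Kit ligand, encoded by Kitl, is made by granulosa cells and binds the receptor tyrosine kinase KIT on the surface of the oocyte. The bound receptor activates PI3K, whose lipid product brings PDPK1 (PDK1) and AKT together at the membrane, and AKT then drives FOXO3 out of the nucleus and relieves the brake that the TSC1 and TSC2 complex holds on MTOR and its substrate S6 kinase (Rps6kb1). In the mouse, nuclear FOXO3 and the TSC complex keep primordial follicles at rest, and loss of either activates the whole pool, whereas PGCs need KIT signalling to survive and migrate. These steps are largely set by phosphorylation and by the place of a protein in the cell, which transcript counts do not measure.

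In mm10 (GENCODE M21) Kitl lies at chr10:100015630-100100416 on the plus strand, and its receptor gene Kit at chr5:75574916-75656722 on the plus strand. The kinase genes are Pdpk1 at chr17:24073680-24150924 (minus), Akt1 at chr12:112653821-112674884 (minus), Mtor at chr4:148448611-148557683 (plus) and Rps6kb1 at chr11:86498871-86544805 (minus). The inhibitor genes are Tsc1 at chr2:28641228-28691167 (plus) and Tsc2 at chr17:24595816-24632630 (minus), and Foxo3 lies at chr10:42181841-42276755 (minus). Reads were counted over exons, and the merged exons span 4098 bases for Akt1, 5911 for Kitl, 7571 for Foxo3, 8911 for Kit and 11833 for Tsc1, the longest of the 9.

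Upstream sequence is shown for Mtor, the gene called between IVF and Natural at E18.5, and for Kit and Foxo3, which had the largest differences between fetal and adult ovaries. The stretches are RefSeq promoter windows on GRCm38.p6, cut to the bases upstream of both the RefSeq and the GENCODE start and written in the direction of transcription, with capitals for GGGCGG (GC box) on either strand.
Mtor, chr4:148448332-148448581, plus strand: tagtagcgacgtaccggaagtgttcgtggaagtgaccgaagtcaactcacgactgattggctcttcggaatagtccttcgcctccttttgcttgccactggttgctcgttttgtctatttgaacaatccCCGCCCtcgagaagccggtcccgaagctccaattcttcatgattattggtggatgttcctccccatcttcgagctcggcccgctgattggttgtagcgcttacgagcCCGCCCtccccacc
Kit, chr5:75574737-75574915, plus strand: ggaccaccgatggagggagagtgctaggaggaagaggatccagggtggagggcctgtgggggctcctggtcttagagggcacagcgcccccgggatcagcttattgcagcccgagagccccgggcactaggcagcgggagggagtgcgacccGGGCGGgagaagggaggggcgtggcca
Foxo3, chr10:42276756-42276945, minus strand: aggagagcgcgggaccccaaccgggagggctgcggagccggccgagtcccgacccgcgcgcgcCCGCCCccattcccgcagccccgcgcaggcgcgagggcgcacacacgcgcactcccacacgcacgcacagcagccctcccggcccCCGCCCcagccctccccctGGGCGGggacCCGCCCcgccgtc
The G and C content was 81.6% in the Foxo3 stretch, 69.3% in that of Kit and 54.4% in that of Mtor. Across the 12 RefSeq windows of the 9 genes, GGGCGG was found in 7, and it was found in 35.7% of all 32851 windows. The letters GTAAACA, to which FOXO proteins bind, were found in 1 of the 12, a window of Akt1, and in 3.65% of all windows. CACGTG (E box) was found in 0 of the 12 and in 7.15% of all, and TATAAA in 1, that of Kitl, and in 13.6% of all.

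Total counts ranged from 6995713 to 14830788 per E18.5 ovary, from 2839022 to 43363799 per 12-week ovary and from 18079970 to 38751638 per 39-week ovary. They ranged from 4364495 to 8675189 per PGC pool, from 2532824 to 6345249 per cumulus library, from 839781 to 10879166 per 12-week oocyte and from 2820748 to 31126357 per 39-week oocyte. IVF replicate 4 had the lowest total of the 12-week ovaries. In one part of the methods IVF fetuses were collected 1 day later than Natural fetuses, and in another part on the same day, so a difference of age at E18.5 cannot be told apart from conception. Natural replicate 5 of the 39-week ovaries carries both 39 and 40 weeks in its labels. Low counts were mostly even (66.7% to 79.1% of values from 1 to 20 in the 7 tables), as when both mates of a read pair are counted. Whether mates were counted in this way was not tested. If they were, counting error is larger than the counts alone imply.

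Kit was highest in PGCs, oocytes and E18.5 ovaries, Kitl in whole ovaries, and both were near 0 in cumulus cells. On the scale of CPM (counts scaled to library size), mean Kit was 413 ± 94.5 (SD, n = 4) in Natural and 505 ± 122 (n = 5) in IVF PGCs. It was 240.3 ± 33.5 and 245 ± 38.7 in 12-week oocytes (n = 5 sets each), and 199.7 ± 94.96 (n = 9) and 287 ± 93.0 (n = 10) in 39-week oocytes. E18.5 ovaries lay among the oocytes, at 243 ± 89.6 (n = 4) and 232 ± 92.6 (n = 6), and adult ovaries at 24.3 to 60.7. In cumulus cells mean Kit was 1.57 ± 1.01 in Natural and 1.32 ± 1.94 in IVF (n = 5 each), and the ranges of these groups did not overlap with that of any other group. Between the groups from PGCs down to 39-week Natural ovaries, neighbours in the order of mean Kit overlapped in every case.

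Kitl was highest in whole ovaries. Its highest means were those of E18.5 ovaries, 219 ± 60.4 CPM in IVF (n = 6) and 116 ± 51.4 in Natural (n = 4), and adult ovaries followed at 63.4 to 87.5 CPM. Kitl was 8.38 ± 0.82 and 6.84 ± 1.37 CPM in 12-week Natural and IVF oocytes (n = 5 sets each), a range that lay below every ovary and above the ranges of the cumulus groups. It was at 0 counts in 3 of 4 Natural and 2 of 5 IVF PGC pools. Per the paper, ovary libraries were made with a KAPA kit and germ cell and cumulus libraries with a modified SMART-Seq protocol. Tables may also differ in run, so these levels were not tested between tables.

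Foxo3 had its highest means in 39-week oocytes, 714 ± 139 CPM in Natural (n = 9) and 549 ± 262 in IVF (n = 10), and 12-week oocytes were at 249 ± 47.7 and 233 ± 44.5 (n = 5 sets each). The 2 oocyte ages were deposited in separate tables, so age and any difference in preparation or run cannot be told apart. PGCs were at 37.4 CPM in both groups and cumulus cells at 17.7 and 15.5. Per kilobase of merged exon, Foxo3 had the highest level of the 9 genes in all 4 oocyte groups, Kit in both PGC groups, and Akt1 in both cumulus groups and all 6 ovary groups. Of the inhibitor genes, Tsc2 stood at 5.89 and 7.38 CPM in 12-week oocytes against 86.2 and 98.1 in PGCs and 93.0 and 99.6 in 12-week ovaries, so oocytes were its lowest groups.

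**Figure D1:**
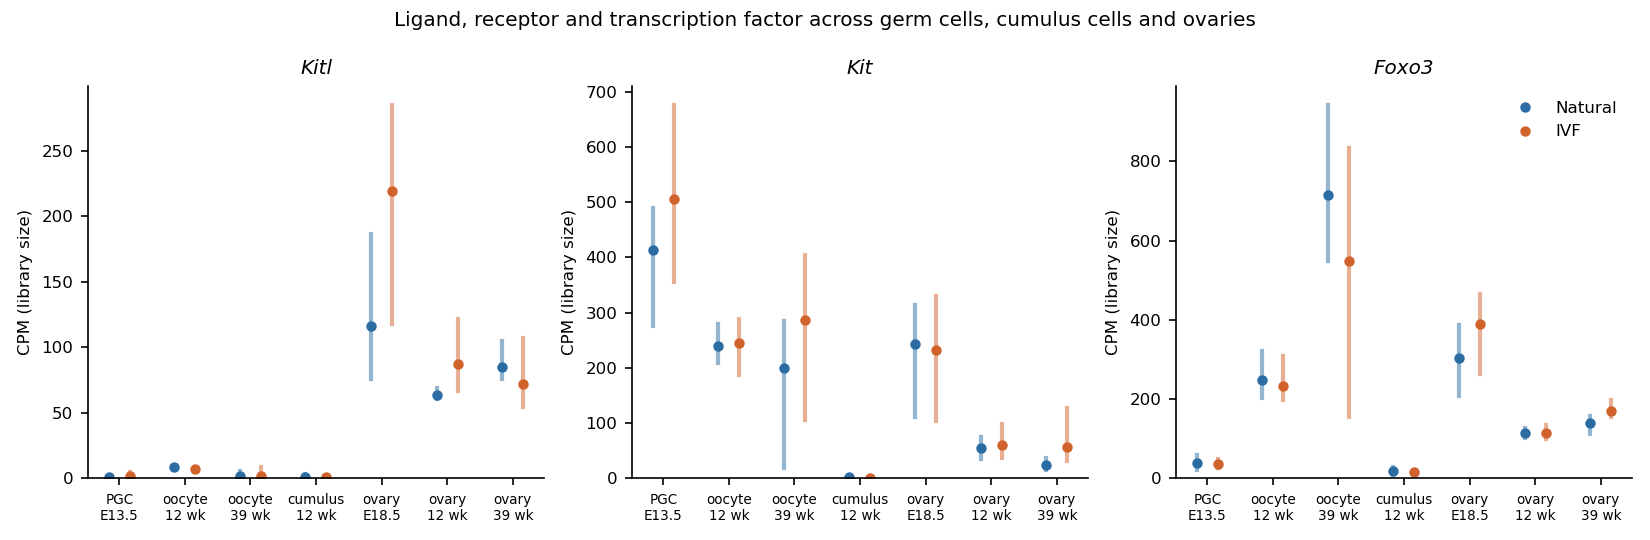
Mean CPM by library size (points) and range over samples (bars) of Kitl, Kit and Foxo3 in the 7 kinds of sample, Natural in blue and IVF in orange; 12-week oocytes are sets by library name. Kit is high in germ cells and E18.5 ovaries and near 0 in cumulus cells, Kitl is high in ovaries only among these tables, and Foxo3 is highest in 39-week oocytes.

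In E18.5 ovaries Mtor was higher in IVF, and it was the 1 member of 9 called at an adjusted p below 0.05 (edgeR's quasi-likelihood test over all tested genes). Of all 16415 genes tested, 5.43% were called. From here on, values within a comparison are TMM-scaled CPM. Mtor, the kinase at the centre of both mTOR complexes, measured 83.7, 75.0, 78.7 and 75.7 CPM in the 4 Natural ovaries, and 91.8 (lowest), 106 (median) and 122 (highest) in the 6 IVF ovaries. All 6 IVF ovaries lay above all Natural ovaries, and no other member had groups that did not overlap, against 8.61% of all genes tested. The means were 78.3 ± 3.94 (SD, n = 4) and 106 ± 11.6 (n = 6), a log2 fold change of 0.44 (SE 0.10, adjusted p = 0.0279). Leaving out 1 of 7 libraries (Natural replicates 2, 3 and 4 and IVF replicates 1, 4, 5 and 6) moved the adjusted p above 0.05, to between 0.0526 and 0.0878, with log2 fold changes of 0.40 to 0.46.

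Kitl, the ligand, showed the larger difference but was not called at E18.5. Natural ovaries were at 192, 119, 82.0 and 80.9 CPM, and IVF ovaries at 118 (lowest), 225 (median) and 287 (highest). Of the 6 IVF ovaries, 4 lay above all Natural ovaries. The Natural ovaries at 192 (replicate 1) and 119 CPM lay inside the IVF range. The log2 fold change was 0.88 (SE 0.27, 95% interval 0.34 to 1.41, adjusted p = 0.0756 by edgeR, and 0.0177 by DESeq2, which called 11.7% of genes). Without Natural replicate 1 it was 1.21, with an adjusted p of 0.0116, and without IVF replicate 3 it was 1.00, with an adjusted p of 0.0337 (edgeR). Leaving out any other ovary gave no call, with log2 fold changes of 0.73 to 0.91 and adjusted p values of 0.108 to 0.181. With the replicate number as a block it was 0.84 (adjusted p = 0.239). The receptor Kit overlapped fully, at 245 ± 86.7 (n = 4) and 229 ± 89.6 CPM (n = 6), with a log2 fold change of -0.10 (SE 0.31, adjusted p = 0.879).

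The remaining kinases, the inhibitors and Foxo3 were not called. Pdpk1 was 93.2 ± 27.1 CPM in Natural and 112 ± 16.2 in IVF, and Natural replicate 1 held the highest single value, 133; without that ovary its log2 fold change was 0.49 (adjusted p = 0.0318) in place of 0.27 (adjusted p = 0.351). Rps6kb1, the S6 kinase gene, was 67.9 ± 6.02 and 79.5 ± 5.56 (log2 fold change 0.23, SE 0.10, adjusted p = 0.180). Akt1 was level, at 403 ± 29.9 and 391 ± 27.6 (log2 fold change -0.04, 95% interval -0.22 to 0.14). Tsc2, whose protein carries the GTPase-activating activity of the complex, was 134 ± 13.0 and 162 ± 11.1, with 5 of 6 IVF ovaries above all Natural ones (log2 fold change 0.27, SE 0.10, adjusted p = 0.116), and its partner Tsc1 was 94.6 ± 6.92 and 110.4 ± 15.4 (0.22, SE 0.11, adjusted p = 0.254). Foxo3 was 309 ± 70.9 and 385 ± 84.1 (0.32, SE 0.19, adjusted p = 0.315). Of the 9 log2 fold changes 7 were above 0, with a median of 0.27, against a median of 0.00021 over all genes tested.

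**Figure D2:**
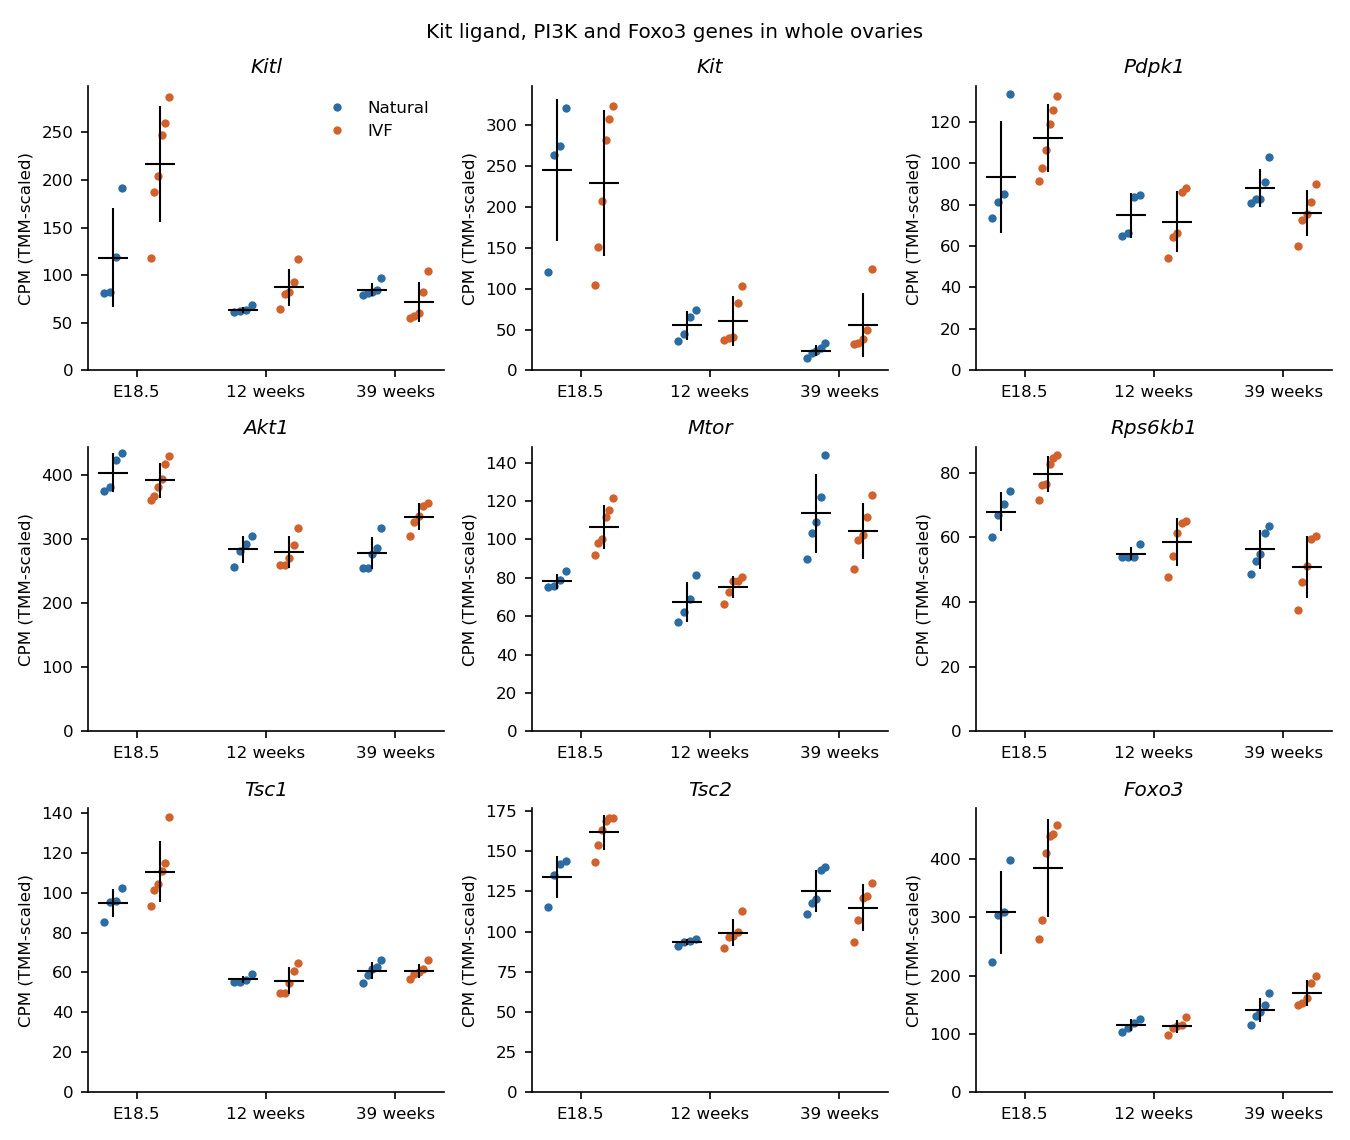
TMM-scaled CPM of the 9 genes in each ovary of the 3 ages, Natural in blue and IVF in orange, with the mean and SD in black; each age is scaled on its own. Mtor separates the E18.5 groups without overlap, and the IVF ovary with 124 CPM of Kit stands apart at 39 weeks.

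Among 71 other genes of the pathway, 7 were called at E18.5, 2 higher and 5 lower in IVF, where 5.43% of all genes tested were called. Of the 15 genes for PI3K subunits and phosphatases, the regulatory subunit gene Pik3r3 rose from 51.5 ± 9.61 to 94.9 ± 20.6 CPM (log2 fold change 0.88, SE 0.18, adjusted p = 0.0196), and Phlpp2, a phosphatase of AKT named after its value was seen, rose from 47.8 to 62.4 CPM. The 13 Kit adaptor genes and the 11 genes of the AKT family and FOXO paralogues held no call. Of 13 genes of the mTOR complexes and their regulators, Rheb, the GTPase that activates mTORC1 and is the target of TSC2, fell from 50.1 ± 2.23 to 37.4 ± 3.56 (log2 fold change -0.42, SE 0.11, adjusted p = 0.0361). In the S6 kinase and cap-binding arm 2 of 7 fell, Rps6 (log2 fold change -0.45, adjusted p = 0.0198) and the translation repressor Eif4ebp1 (-0.57, adjusted p = 0.0247). Rps6 has many processed copies in the mouse genome, so how its reads were assigned is uncertain. Of 12 FOXO target genes 2 fell, Txnip (log2 fold change -0.58, adjusted p = 0.0247), an inhibitor of thioredoxin, and the transcription factor gene Klf2 (-0.61, adjusted p = 0.0362). The median log2 fold change of the 71 was -0.019.

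**Figure D3:**
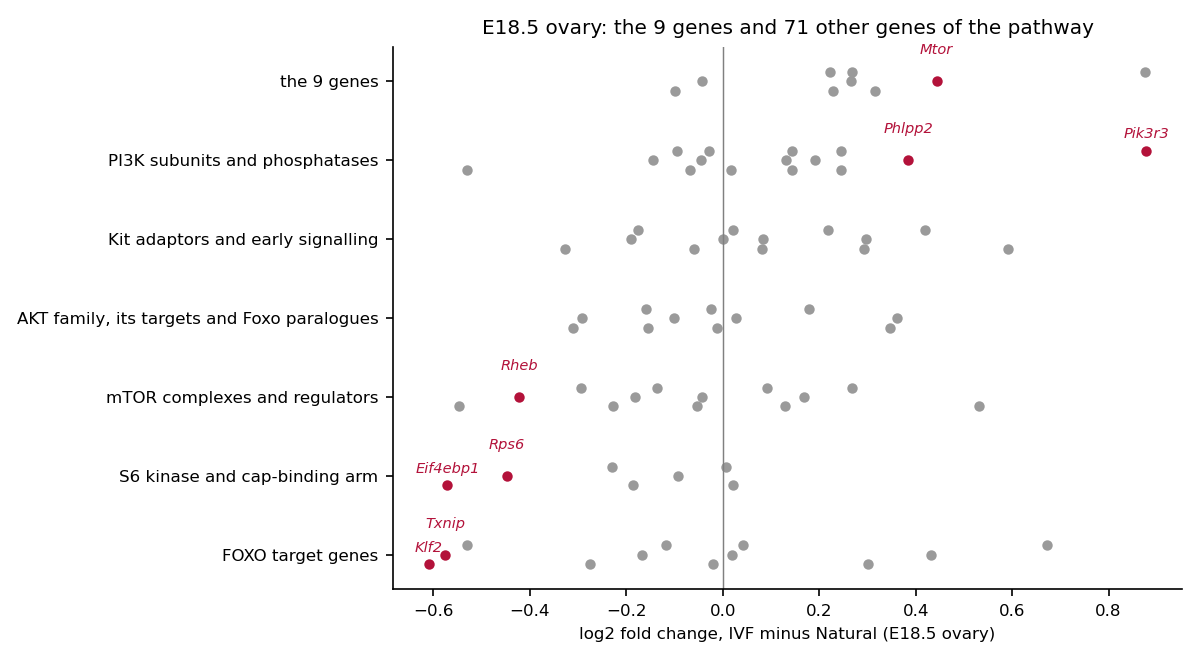
Log2 fold change, IVF minus Natural, of the 9 genes and of 71 other pathway genes by list in E18.5 ovaries; each point is a gene, red and named where the adjusted p was below 0.05. Mtor and 2 genes of the PI3K list are higher, and Rheb, Rps6, Eif4ebp1, Txnip and Klf2 are lower.

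Markers of other cells moved with conception at E18.5. All 6 erythroid markers were higher in IVF, 2 of them called, and their summed level was 599 to 1600 CPM in Natural and 1601 to 4582 in IVF. Of 11 tested germ cell and oocyte markers 9 were lower, 3 of them called, with sums of 307 to 961 CPM in Natural and 172 to 532 in IVF, and Oosp1 was at 0. Gonad somatic markers were higher in 5 of 5, none called, with sums of 740 to 835 CPM in Natural and 827 to 949 in IVF. Granulosa markers were higher in 4 of 9 tested, 1 called, with sums of 431 to 646 and 446 to 550. Endothelial markers were lower in 5 of 5, 1 called, and epithelial and oviduct markers in 6 of 6, none called. Theca and stroma had 2 markers called higher, luteal 1 called higher and mast cell 1 called lower. The part of these lists in the differences of Mtor, Kitl and the pathway genes was not tested. In RNA of whole ovaries, fewer cells of a type and less RNA per cell cannot be told apart. The paper counted germ cells in stained E18.5 ovaries and reported no difference between IVF and Natural.

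In 12-week ovaries none of the 9 genes was called, against 0.00567% of 17628 genes tested (1 gene), and none had groups that did not overlap, against 6.09%. One of the 9 had an unadjusted p below 0.05 with edgeR, and DESeq2 called 0. That gene was Kitl, which measured 62.3, 63.0, 68.3 and 61.2 CPM in Natural and 79.9, 117, 82.6, 64.3 and 92.6 in IVF ovaries. Of the 5 IVF ovaries, 4 lay above all Natural ones. The ovary inside the Natural range was replicate 4, which had the lowest depth with 190 Kitl counts. The means were 63.7 ± 3.18 (n = 4) and 87.3 ± 19.5 (n = 5), a log2 fold change of 0.46 (SE 0.15, 95% interval 0.17 to 0.75, adjusted p = 0.223). Granulosa markers, of the cells that make Kit ligand, summed to 1930 to 2588 CPM in Natural and 2251 to 4756 in IVF, and their part in the Kitl value was not tested.

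The other 8 members had log2 fold changes between -0.05 and 0.16 at 12 weeks. Kit spread widely within IVF, at 37.7, 40.4, 39.3, 82.9 and 103 CPM, and within Natural, at 44.7, 35.6, 74.0 and 65.8. Mast cells also carry Kit, and of their 4 tested markers 3 were higher in IVF and 1 lower, none called. That 1 was Hdc, at 99.2 to 171 CPM in Natural and 15.0 to 87.0 in IVF, which made up most of the list's sum of 115 to 177 CPM in Natural and 15.2 to 103 in IVF; the highest level of any other marker of the list was 10.8 CPM. Foxo3 was 115 ± 10.1 and 113 ± 11.3 (95% interval of the log2 fold change -0.21 to 0.17), and Akt1 284 ± 20.8 and 279 ± 24.7 (-0.21 to 0.16). Among the 71 pathway genes 0 were called by edgeR, 11 had an unadjusted p below 0.05 and DESeq2 called 2; the smallest p values were those of Trib1, a pseudokinase gene, at 19.7 and 12.1 CPM (adjusted p = 0.152), and of the Src-family kinase gene Lyn, at 37.9 and 28.1 (adjusted p = 0.178). Epithelial and oviduct markers summed to 3540 to 7464 CPM in Natural and 139 to 3047 in IVF, and their part in these values was not tested.

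In 39-week ovaries Kit had the largest difference, but none of the 9 genes was called, against 0.262% of 17186 genes tested. Of the 9, 3 had an unadjusted p below 0.05 (Kit, Akt1 and Foxo3), and DESeq2 called 2, Kit and Akt1, where it called 7.28% of genes. Kit measured 15.1, 33.4, 26.8, 21.3 and 24.3 CPM in Natural and 49.5, 124, 33.6, 38.8 and 32.7 in IVF. Of the 5 IVF ovaries, 4 lay above all Natural ovaries, and IVF replicate 2 stood far above the rest. The log2 fold change was 1.20 (SE 0.38, adjusted p = 0.146), and without IVF replicate 2 it was 0.67 (adjusted p = 0.213).

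Kit also marks mast cells. Of 5 tested mast cell markers 2 were higher in IVF and 3 lower, none called. The list summed to 25.0 to 35.6 CPM in Natural and 14.7 to 257 in IVF, with 257 in IVF replicate 1 and 15.8 in IVF replicate 2, where Kit was 124. Hdc made up 252 CPM of the highest sum, and no other marker of the list passed 7.58 CPM in any 39-week ovary. In 12-week cumulus cells the same list summed to 42.1 to 86.6 CPM in Natural and 51.9 to 68.2 in IVF. How well the sum tracks mast cells was not tested. Germ cell and oocyte markers summed to 83.1 to 154 CPM in Natural and 82.5 to 179 in IVF, and IVF replicate 2 was at 155. Granulosa markers were highest in that library, 4419 CPM, against 1306 to 2752 in Natural. Luteal markers were lower in IVF in 5 of 5, with sums of 19566 to 32218 CPM in Natural and 11212 to 24442 in IVF, and endothelial markers in 5 of 5, with 299 to 416 and 197 to 318; none of either list was called. The part of these lists in the values of Kit, Kitl and Akt1 was not tested. Epithelial and oviduct markers reached 8433 CPM in IVF replicate 1, whose removal left the Kit log2 fold change at 1.24.

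**Figure D4:**
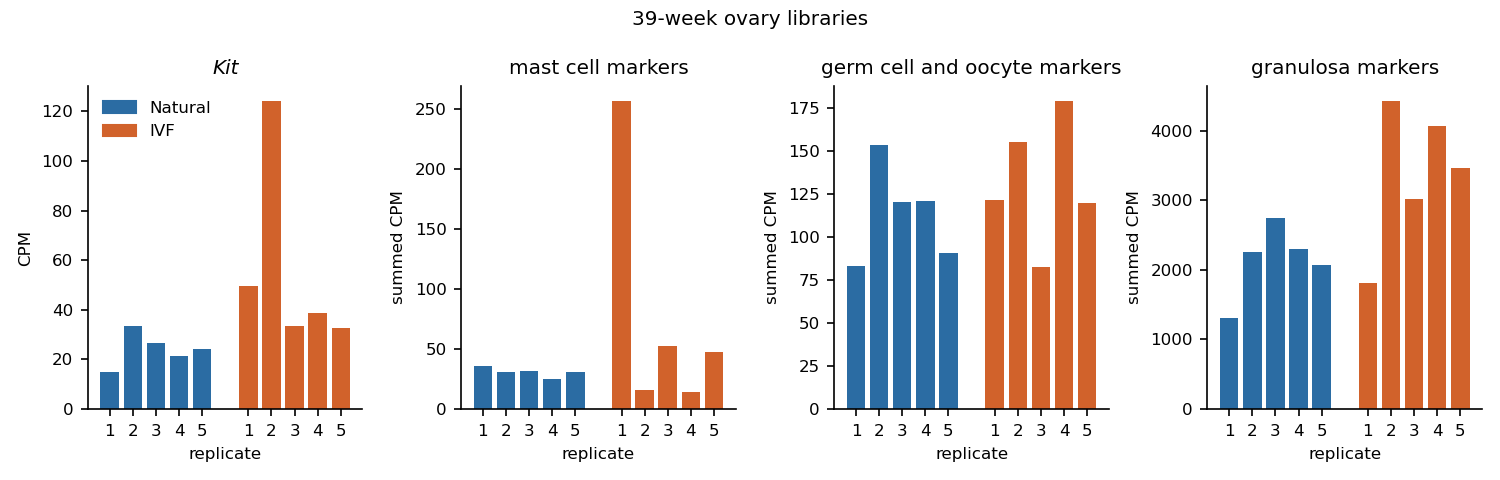
TMM-scaled CPM of Kit and summed CPM of mast cell, germ cell and oocyte, and granulosa markers in each 39-week ovary, Natural replicates 1 to 5 in blue and IVF replicates 1 to 5 in orange. The library with the most Kit, IVF replicate 2, has a low mast cell sum, which is mostly Hdc, and the highest granulosa sum. How well the mast cell sum tracks mast cells was not tested.

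Kitl did not differ in the same direction as Kit at 39 weeks. It measured 82.4, 97.0, 81.7, 84.2 and 79.1 CPM in Natural and 56.9, 104, 55.0, 82.8 and 60.7 in IVF. Of the IVF ovaries 3 lay below all Natural ovaries and 1, replicate 2 again, above them (log2 fold change -0.24, SE 0.17, adjusted p = 0.464). Without that replicate the log2 fold change was -0.41 (adjusted p = 0.210).

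Akt1 was 278 ± 25.3 CPM in Natural and 335 ± 21.0 in IVF at 39 weeks (n = 5 each), with 4 of 5 IVF ovaries above all Natural ones (log2 fold change 0.27, SE 0.09, adjusted p = 0.170). Foxo3 was 141 ± 20.7 and 170.0 ± 22.0 (0.27, SE 0.12, adjusted p = 0.259). Mtor, Rps6kb1, Tsc2 and Pdpk1 had log2 fold changes of -0.12, -0.14, -0.13 and -0.21, and Tsc1 was 60.8 CPM in both groups. No member had groups that did not overlap, against 5.11% of genes tested. Of the 71 pathway genes edgeR called 0, 10 had an unadjusted p below 0.05 and DESeq2 called 3. The smallest p values were those of Deptor, an inhibitor within the mTOR complexes, at 311 and 169.8 CPM without overlap (log2 fold change -0.87, SE 0.16, adjusted p = 0.0591), and of the ubiquitin ligase gene Cblb, at 67.6 and 41.0 (-0.72, adjusted p = 0.103).

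Age was followed in one fit of all ovaries. Each age is a separate table, so age and any difference in run cannot be told apart. Nor can age be told apart from the part sampled, since RNA came from a part of each adult ovary and from a whole E18.5 gonad. From E18.5 to 12 weeks in Natural ovaries 6 of the 9 genes fell and none rose. Of 19724 genes, 49.7% were called in either direction, 4798 lower and 4999 higher. The largest fall was that of Kit, from 232 ± 88.4 to 54.9 ± 18.2 CPM on the scale of this fit (n = 4 each, log2 difference -2.08, SE 0.44, adjusted p = 0.000318), and Foxo3 followed, from 293 ± 80.1 to 115 ± 10.7 (-1.35, SE 0.17, adjusted p = 5.2e-07). At both genes every 12-week ovary lay below every E18.5 ovary, and the share of all genes separated in this way was not counted. With each age scaled on its own, not on the scale of this fit, germ cell and oocyte markers summed to 307 to 961 CPM in E18.5 Natural ovaries. They summed to 121 to 275 in 12-week Natural ovaries, and their part in these falls was not tested.

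Tsc1 (log2 difference -0.66), Tsc2 (-0.43) and Akt1 (-0.42) fell less, with adjusted p values of 7.8e-06, 0.000447 and 0.000401. Kitl fell from 113 ± 55.7 to 63.5 ± 3.62 CPM (-0.83, SE 0.26, adjusted p = 0.0105), a call that was lost without Natural replicate 1 of E18.5 (-0.44, adjusted p = 0.134). Pdpk1, Mtor and Rps6kb1 were not called (-0.25, -0.13 and -0.22). In IVF ovaries, a contrast added after the values were seen, all 9 genes fell, from -0.33 for Rps6kb1 to -1.82 for Kit. Of 19724 genes, 59% were called in either direction, 5571 lower and 6075 higher. The Rps6kb1 call was lost without IVF replicate 4 of 12 weeks (-0.23, adjusted p = 0.0723).

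From 12 to 39 weeks Mtor and Tsc2, 2 of 9, rose in Natural ovaries. Of 19724 genes, 21.6% were called in either direction, 1980 higher and 2287 lower. Mtor went from 67.3 ± 11.1 (n = 4) to 123 ± 21.9 CPM (n = 5) (log2 difference 0.88, SE 0.13, adjusted p = 9.92e-05), and Tsc2 from 93.1 ± 2.44 to 136 ± 13.1 (0.55, SE 0.09, adjusted p = 0.00029). At both genes the ages did not overlap, and the share of all genes without overlap between ages was not counted. Kit went from 54.9 ± 18.2 to 26.3 ± 7.35 CPM without a call (-1.06, SE 0.40, adjusted p = 0.0585 by edgeR and 0.0327 by DESeq2, which called 25% of genes). It was called without Natural replicate 2 of 12 weeks (-1.22, adjusted p = 0.0475) or without Natural replicate 2 of 39 weeks (-1.21, adjusted p = 0.0478). Foxo3 was at 0.41 (SE 0.16, adjusted p = 0.0699) and was called without Natural replicate 1 of 39 weeks (0.48, adjusted p = 0.0475) and by DESeq2 (adjusted p = 0.0463). In IVF ovaries 4 of 9 rose: Akt1 (0.39), Mtor (0.59), Tsc2 (0.33) and Foxo3 (0.71), with adjusted p values of 0.00714, 0.0054, 0.0205 and 0.00901. Of 19724 genes, 6.19% were called in either direction, 834 higher and 386 lower. The Tsc2 call was lost without IVF replicate 3 of 12 weeks or without IVF replicate 4 or 5 of 39 weeks.

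The difference between IVF and Natural was then compared between ages within the same fit. None of the 9 genes was called for a change of the IVF difference from E18.5 to 12 weeks, against 0.314% of genes, and none from 12 to 39 weeks, against 2.71%. DESeq2 also called 0 in both. Unadjusted p values below 0.05 numbered 0 and 1 with edgeR, the latter for Akt1 (difference 0.29, SE 0.12, adjusted p = 0.154). The IVF difference of Mtor was smaller by 0.26 at 12 weeks than at E18.5, with a 95% interval of -0.60 to 0.09, so that the call at E18.5 is not shown to be particular to that age. From 12 to 39 weeks the differences of Kitl and Kit moved in opposite directions, by -0.70 (SE 0.34, adjusted p = 0.254) and 1.08 (SE 0.55, adjusted p = 0.279).

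In E13.5 PGCs the receptor gene was abundant and the ligand gene close to absent, and IVF and Natural did not differ by the test. None of the 9 genes was called, against 0% of 12763 genes tested with edgeR (349 of the 12763 had an unadjusted p below 0.05), none of the 9 had an unadjusted p below 0.05, and DESeq2 called 0. Kit measured 585, 218, 467 and 471 CPM in Natural and 759, 330.2, 381, 626 and 476 in IVF pools, overlapping widely (log2 fold change 0.24, SE 0.34, 95% interval -0.42 to 0.90). Kitl was at 0 in 3 Natural pools and 2.42 CPM in the other, and at 5.63, 0, 3.09, 1.72 and 0 CPM in IVF pools, with at most 38 counts. Tsc1 was 45.3, 111, 34.1 and 34.4 CPM in Natural and 105, 84.9, 73.7, 59.4 and 94.6 in IVF. Natural replicate 2 lay above all IVF pools and the other Natural pools below all of them (log2 fold change 0.56, SE 0.34, and 1.15 without Natural replicate 2).

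The other members of PGCs had log2 fold changes from -0.33 (Rps6kb1) to 0.18 (Tsc2), and Foxo3 was 36.2 ± 7.55 and 36.6 ± 6.43 CPM. No member had groups that did not overlap, against 1.18% of genes. Of 62 tested pathway genes edgeR and DESeq2 called 0, and 5 had an unadjusted p below 0.05; Klf2 at 22.3 and 11.6 CPM and Galt at 47.4 and 34.5 had the smallest p. The granulosa markers Foxl2, Amh and Fshr were at 0 in all pools, but others of that list were counted. The 11 granulosa markers summed to 15.0 to 26.6 CPM in Natural and 11.6 to 19.9 in IVF pools. Endothelial markers summed to 73.5 to 453 CPM.

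In 12-week oocytes, summed per set, none of the 9 genes was called, against 0.0277% of 14444 genes (4 genes). None had an unadjusted p below 0.05 with edgeR or DESeq2, and limma on set means called 0. With counts summed per first field of the library name (2 against 2), 0 of 9 were called and 0 had an unadjusted p below 0.05, where edgeR called 5 of 17378 genes. The ligand gene Kitl was low, at 9.46, 9.43, 8.08, 7.75 and 9.09 CPM in Natural and 7.79, 5.45, 4.98, 5.86 and 9.00 in IVF sets. Of the IVF sets 3 lay below all Natural sets (log2 fold change -0.40, SE 0.20, adjusted p = 0.775). Kit was 304, 222, 228, 286 and 219 CPM in Natural and 226, 259.5, 158, 281 and 261 in IVF. The groups overlapped (log2 fold change -0.09, 95% interval -0.41 to 0.24).

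Foxo3 was 241, 251, 288, 329 and 195 CPM in Natural and 193, 224, 260.2, 197 and 235 in IVF sets, again with overlap (log2 fold change -0.23, SE 0.15, adjusted p = 0.834). Tsc1 was 11.5 ± 2.82 and 16.3 ± 9.15, and IVF set 126_4 was highest at 31.4. That set was also highest in Pdpk1, at 218 CPM against 137 to 155 in the other IVF sets, and lowest of all sets in Kit. No member had groups that did not overlap, against 1.39% of genes. Among single oocytes, Kit was counted in all 76, from 40.4 to 336 CPM in Natural and from 48.0 to 345 in IVF, and Kitl was at 0 in 1 oocyte. The cumulus markers Ptx3 and Has2 were at 0 in 56 and 47 of the 76 oocytes and the granulosa marker Inha in 23, but the granulosa marker Cyp19a1 was at 0 in 1 oocyte and had a median of 41.9 CPM. Of 68 pathway genes edgeR called 0, none had an unadjusted p below 0.05 and DESeq2 called 0; Ccng2, a FOXO target and cyclin gene, at 76.7 and 97.7 CPM, and Stk11 (LKB1), at 11.7 and 28.0, had the smallest p.

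Single oocytes of 39 weeks carry no donor in their labels, so they were described and not tested. Foxo3 was 534 (lowest), 643 (median) and 1021 CPM (highest) in 9 Natural oocytes and 128, 623 and 997 in 10 IVF oocytes. Kit was 16.9, 240.2 and 315 CPM in Natural and 123, 293 and 465 in IVF, and Tsc1 was 13.0, 30.2 and 80.4 against 7.75, 23.4 and 33.7. The ranges of all 9 genes overlapped. On the TMM scale none of the 9 ratios of means reached 2-fold, which 14.3% of 10940 genes did, and the farthest from 0 was that of Tsc1, -0.86 on the log2 scale (-0.37 for the medians). By library size alone Tsc1 passed 2-fold, at 43.9 CPM in Natural and 20.8 in IVF (log2 ratio -1.08), as did 17.1% of genes. Kitl was at 0 in 1 oocyte of each group and at most 6.90 CPM.

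In 12-week cumulus cells Kit and Kitl were too low to test, and none of the 7 members tested was called, against 0.00903% of 11080 genes (1 gene). None had an unadjusted p below 0.05 with edgeR, and DESeq2 called 0. Kitl was 0, 0.429, 1.75, 2.72 and 1.24 CPM in Natural and 0.706, 1.68, 1.36, 0 and 1.31 in IVF, at most 14 counts. Kit was 1.93, 0.859, 2.10, 2.33 and 0.412 CPM in Natural and 4.23, 0.841, 0.682, 0 and 0.327 in IVF, at most 12 counts. Both genes lay near the detection limit, which for libraries of this depth is 3 counts or 0.489 to 1.18 CPM by library size in the 6 libraries named GC. The limit covers counting error only and takes every count as a separate fragment. The granulosa markers summed to 1215 to 2722 CPM, while the 12 germ cell and oocyte markers summed to 16.4 to 36.0 CPM in the 6 GC libraries and 0.817 to 1.20 in the 4 numbered ones, with Figla at 0 in all. The highest of these sums, 36.0, was that of IVF replicate 1, which also had the most Kit, 4.23 CPM, and its part in that value was not tested.

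The libraries of cumulus cells fall into a numbered set of 4 and a GC set of 6, and the set was a covariate in the fit. Pdpk1 differed with the set, at 8.92 to 17.8 CPM in the numbered and 26.2 to 31.7 in the GC libraries, without overlap. The share of all genes without overlap between the sets was not counted. With the set in the fit, Pdpk1 had a log2 fold change of -0.28 (SE 0.19, adjusted p = 0.886). Within the GC set Foxo3 had a log2 fold change of 0.34, in place of -0.18 over both sets, and within the numbered set Akt1 had 0.21 in place of -0.03. No member had groups that did not overlap, against 0.731% of genes. Of 66 tested pathway genes edgeR called 0, 2 had an unadjusted p below 0.05 and DESeq2 called 1. These 2 were Stk11 (log2 fold change 1.19, SE 0.26, adjusted p = 0.182) and the antiproliferative gene Btg1 (0.43, adjusted p = 0.731).

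**Figure D5:**
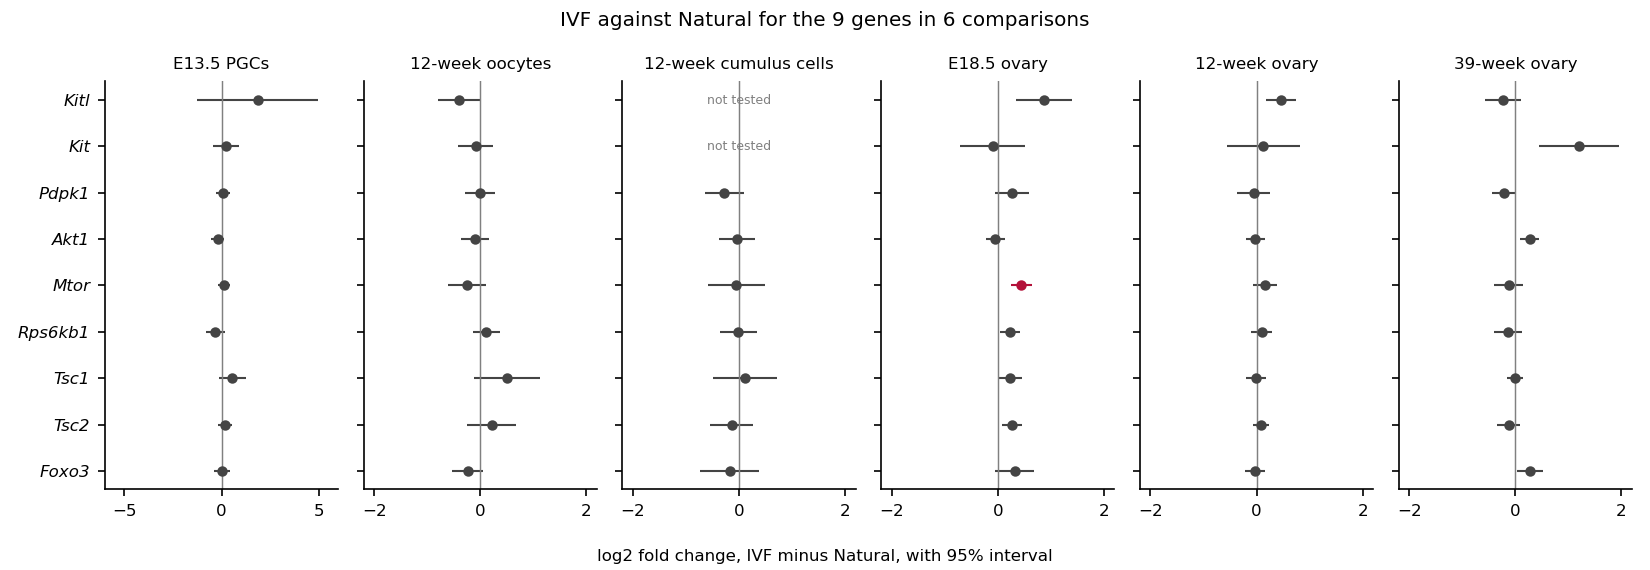
Log2 fold change, IVF minus Natural, with its 95% interval for the 9 genes in the 6 tested comparisons; red marks an adjusted p below 0.05, and the PGC panel has a wider axis. The value of Mtor at E18.5 is the only red point among these comparisons.

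Over the 14 group means, the genes whose log2 levels were most like Kit among 20490 genes were Clspn (Pearson r = 0.991), Cnot4 (0.989) and Cep41 (0.986). For Kitl they were Zbtb7c (0.989), Dact3 (0.984) and Inpp5a (0.983), and for Foxo3 Axin2 (0.984), Ski (0.984) and Smad3 (0.980). These are descriptions, and the group means of one table may share effects of library preparation and run.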

How the data were processed

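The authors deposited whole-number counts of reads per gene, not normalized, in 7 tables, 1 for each kind of sample. Per the submitters' processing notes the tools were Trimmomatic (0.32), STAR (2.3.0e), featureCounts (1.5.0) and DESeq2 with mm10. Groups were read from sample labels. Counts were analysed with edgeR (4.0.16) in R (4.3.3): default expression filter, TMM normalization, quasi-likelihood fits over all genes and Benjamini-Hochberg adjusted p below 0.05, two-sided. The SE was the log2 fold change divided by the square root of F. Counts of 12-week oocytes were summed per set, the first 2 fields of the library name, whose meaning is not stated in the labels. For cumulus cells the set of libraries was a term of the model, and all ovaries entered 1 fit for age. IVF age contrasts, fits within a library set and the oocyte fits by a single name field were added after seeing the data. DESeq2 (1.42.0) and limma (3.58.1) were alternatives. Levels across tables are CPM by library size. The pipeline was tested on simulated data. The 9 genes and the gene lists were chosen with earlier results of these data known. All 9 genes were named in every comparison; other pathway genes were named if called (at most 6) or else the 2 with the smallest p. Replicates of a group differed by more than sampling noise in all pairs. The labels do not say whether every ovary came from a separate litter, so p values measure the spread between these samples. The 4 earlier cumulus records, which share library names with later ones, and 39-week cumulus cells were not analysed here. Figures used matplotlib (3.10.9).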

Additional observations from a re-analysis of the deposited data

Results flagged for a closer look

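In 10 of 126 sets (1 gene in 1 group) a single sample lay far from the rest of its group by Dixon's test, and chance alone gives about 1 set in 20, or 6.3. All values are TMM-scaled CPM.

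In whole ovaries, Kit was 124 CPM in IVF replicate 2 of 39 weeks, against 32.7 to 49.5 in the other IVF ovaries. Kitl was 97.0 in Natural replicate 2 of 39 weeks, against 79.1 to 84.2. Rps6kb1 was 57.9 in Natural replicate 4 of 12 weeks, against 53.8 to 54.0, a gap that is large only beside the narrow range of the other ovaries.

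In PGCs, Tsc1 was 111 CPM in Natural replicate 2 against 34.1 to 45.3 in the other Natural pools, and Akt1 was 42.5 in IVF replicate 1 against 53.0 to 55.4. Kitl was 2.42 in Natural replicate 4 and at 0 in the other Natural pools.

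Among oocytes, Pdpk1 was 218 CPM in IVF set 126_4 of 12 weeks against 137 to 155 in the other IVF sets. At 39 weeks Kitl was 6.90 in IVF oocyte 7 against 0 to 1.69, and Rps6kb1 was 54.8 in IVF oocyte 8 against 19.2 to 33.2. In cumulus cells Kit was 4.23 in IVF replicate 1 against 0 to 0.841 in the other IVF libraries, and the highest count of Kit in any of these libraries was 12. That library also had the highest sum of germ cell and oocyte markers, 36.0 CPM.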

How the results depend on the processing

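Outside the replicates left out in turn, 411 of the alternatives for single genes kept the sign and the call. Of the rest, 8 reversed the sign, 5 gained a call and 3 lost one. With DESeq2 the members called numbered 2 at E18.5, 2 in 39-week ovaries and 4 in Natural ovaries from 12 to 39 weeks, in place of 1, 0 and 2. With no filter on low counts Mtor at E18.5 lost its call, leaving 0 members (adjusted p = 0.0519). The cause of these moves was not tested.

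Counts of all genes called moved more. DESeq2 called 1913 genes at E18.5 (891 with edgeR), 619 in 12-week ovaries (1), 1210 in 39-week ovaries (45), 46 in oocytes (4), 25 in cumulus cells (1), 1896 in IVF ovaries from 12 to 39 weeks (1220), and 299 and 1531 for the change of the IVF difference to 12 and to 39 weeks (62 and 534). With no filter the counts were 9 in 12-week ovaries, 28 in 39-week ovaries, 19 in oocytes, 104 in cumulus cells, 759 in IVF ovaries from 12 to 39 weeks and 16 for the change of the IVF difference to 12 weeks, which was 29 with RLE size factors. Tsc1 at 39 weeks was 0.0051 with no filter. Cumulus cells had 0 calls without the library set as a term, 639 within the numbered set and 2 within the GC set. Within the numbered set Akt1 was 0.21, and within the GC set Mtor was 0.00065, Rps6kb1 0.026 and Foxo3 0.34 (log2 fold changes).

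In no comparison did every sample correlate best with its own replicate number. Correlations of same-numbered deviations ran from -0.13 to 0.010 at E18.5, -0.36 to 0.25 in 12-week ovaries and -0.0062 to 0.40 in 39-week ovaries. They ran from -0.068 to 0.54 in PGCs and -0.30 to 0.16 in cumulus cells. Some Natural samples did correlate best with the IVF sample of their own number. These were replicates 1, 2 and 4 of PGCs, 1, 2 and 5 of 39-week ovaries and 1 of 12-week ovaries. A pairing by number was therefore not settled for PGCs and 39-week ovaries. With the replicate block 0 members and 3 genes were called at E18.5 (Mtor 0.36, adjusted p = 0.263), 0 genes in 12-week ovaries, 26 in 39-week ovaries, 2 in PGCs and 26 in cumulus cells. Under the block, Kit at 12 weeks was -0.17, Tsc1 at 12 weeks 0.012 and Tsc1 at 39 weeks 0.0013. For 12-week oocytes the second field of the library name was used as a replicate block, added after seeing the data: 0 members and 1 gene were called, in place of 0 and 4.

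Leaving out 1 replicate gave 0 to 3 members called at E18.5. All genes called ranged from 313 to 1973 at E18.5, 1 to 5 in 12-week ovaries, 0 to 123 in 39-week ovaries, 1 to 8 in oocytes, 1 to 5 in cumulus cells, 539 to 2606 in IVF ovaries from 12 to 39 weeks, and 0 to 96 and 80 to 1111 for the change of the IVF difference to 12 and to 39 weeks. Log2 fold changes that crossed 0 ranged as follows. At E18.5 Kit was -0.33 to 0.058. In 12-week ovaries Kit was -0.20 to 0.30, Pdpk1 -0.16 to 0.018, Akt1 -0.079 to 0.0037, Tsc1 -0.083 to 0.0027 and Foxo3 -0.10 to 0.028. In 39-week ovaries Tsc1 was -0.040 to 0.029. In PGCs Pdpk1 was -0.015 to 0.16 and Foxo3 -0.087 to 0.15. In oocytes Kit was -0.16 to 0.021 and Pdpk1 -0.15 to 0.044. In cumulus cells Akt1 was -0.14 to 0.061, Mtor -0.19 to 0.13, Rps6kb1 -0.053 to 0.033, Tsc1 -0.070 to 0.27, Tsc2 -0.25 to 0.0076 and Foxo3 -0.35 to 0.057. Across ages Pdpk1 in Natural ovaries to 12 weeks was -0.35 to 0.028, Kit and Rps6kb1 in IVF ovaries to 39 weeks -0.52 to 0.31 and -0.15 to 0.025, and the change of the IVF difference -0.033 to 0.49 for Kit to 12 weeks and -0.030 to 0.073 for Tsc1 to 39 weeks. Depth limits Kit and Kitl in cumulus cells and Kitl in PGCs.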

Other observations

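The GC cumulus libraries share the first fields of their names with sets of 12-week oocytes. In these 6 pairs Kit was 187 to 288 CPM by library size in the oocytes and 0.372 to 4.74 in the cumulus cells, and Kitl was 0.790 to 3.43 CPM in the cumulus cells. In 1 pair the cumulus library is labelled Natural and the oocytes IVF, and both labels were kept.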
